A study of Mus musculus with 4 samples.

Results

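The regions described here are stretches of open chromatin that were called in all 4 ATAC-seq libraries of a mouse macrophage series and ranked higher in both libraries without histone H3.3 than in both libraries with it. ATAC-seq inserts sequencing adapters into accessible DNA with the Tn5 transposase, so that a pile-up of reads, called as a peak, marks open chromatin. Peaks of the 4 lists that overlapped by 1 bp or more were merged into 71243 regions, of which 44820 had a peak in every library and 43706 of these lay on autosomes. Each peak was ranked by its area, the area under its significance curve, as a percentile from 0 to 100 among all peaks of its own library. A shared autosomal region was taken as rising when its lower H3.3cKO percentile exceeded its higher WT percentile by 20 points or more. This gave 657 rising regions, or 1.50% of the shared autosomal regions. Of the 30996 regions whose WT percentile left room for such a gap they were 2.12%. The regions were selected on the peak areas of the same contrast, so nothing is read from these counts. The mirror rule gave 1397 falling regions (3.20%).

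The cells were bone marrow-derived macrophages (BMDMs), grown from mouse marrow for 6 to 8 days in medium conditioned by L929 cells. WT mice carried loxP-flanked H3f3a and H3f3b, the genes for H3.3, without Cre. H3.3cKO mice carried the same floxed alleles with Cre on both copies of the Lyz2 (LysM) locus, which drives it in myeloid cells, so the Cre insertion at Lyz2 and the loss of H3.3 cannot be told apart here. The study describes H3f3b as deleted fully in some cases and partly in others. Each genotype had 2 libraries, labelled as biological replicates, and the spread between them is the only replicate error here.

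H3.3 is a histone variant that is placed in chromatin outside DNA replication, at active genes, enhancers and other sites of nucleosome turnover. Distal enhancers of macrophages are opened by PU.1 together with partners such as C/EBP, AP-1, RUNX and interferon regulatory factors. AP-1 is a family of FOS, JUN, ATF and MAF-related dimers that read the letters TGAGTCA, and the interferon-stimulated response element (ISRE) is read by interferon regulatory factors and their partners.

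The sequences of 10 rising regions are shown to display AP-1 matches, the most frequent motif among the rising regions, and ISRE matches, which stood at several of the interferon-stimulated genes described below. The first group holds the regions with the largest gaps between the genotypes that had such a match, and the second group holds 5 regions nearest to genes of the pathway lists used below. Each run is from the forward strand of the RefSeq mm10 assembly, lies within 100 bp of the summit and avoids annotated exons. Capitals mark matches to AP-1 (TGAGTCA, or TGACTCA on the other strand) or to the ISRE on either strand. Each line opens with the gene of the nearest protein-coding transcription start site (TSS).
Tespa1 (chr10:130311669-130311868): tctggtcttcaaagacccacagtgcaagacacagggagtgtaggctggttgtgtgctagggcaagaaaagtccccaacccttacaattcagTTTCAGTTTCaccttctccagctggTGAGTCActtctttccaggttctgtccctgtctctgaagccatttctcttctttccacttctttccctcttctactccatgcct
Nr3c2 (chr8:77112875-77113074): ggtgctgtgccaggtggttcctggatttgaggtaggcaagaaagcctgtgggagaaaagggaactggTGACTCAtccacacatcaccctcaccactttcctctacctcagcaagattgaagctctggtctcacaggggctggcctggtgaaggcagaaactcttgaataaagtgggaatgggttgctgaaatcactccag
Rwdd3 (chr3:120649178-120649377): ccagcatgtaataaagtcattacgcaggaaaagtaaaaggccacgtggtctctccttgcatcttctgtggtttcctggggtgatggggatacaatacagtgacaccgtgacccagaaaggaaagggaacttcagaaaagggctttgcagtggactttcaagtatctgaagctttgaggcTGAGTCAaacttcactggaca
Treml2 (chr17:48300922-48301121): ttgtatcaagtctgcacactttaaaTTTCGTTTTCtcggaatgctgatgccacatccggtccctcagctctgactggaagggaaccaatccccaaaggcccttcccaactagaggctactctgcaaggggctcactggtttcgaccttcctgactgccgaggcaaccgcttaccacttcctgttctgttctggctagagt
Hsfy2 (chr1:56685191-56685390): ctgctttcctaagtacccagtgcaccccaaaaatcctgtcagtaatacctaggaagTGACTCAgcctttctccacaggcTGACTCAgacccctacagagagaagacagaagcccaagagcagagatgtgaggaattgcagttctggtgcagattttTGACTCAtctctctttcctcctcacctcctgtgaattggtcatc
Mcm5 (chr8:75104511-75104710): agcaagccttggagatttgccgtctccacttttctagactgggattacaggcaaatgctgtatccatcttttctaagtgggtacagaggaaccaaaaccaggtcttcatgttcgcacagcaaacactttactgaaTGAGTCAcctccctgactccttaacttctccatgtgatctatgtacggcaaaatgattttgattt
Ifi206 (chr1:173491195-173491394): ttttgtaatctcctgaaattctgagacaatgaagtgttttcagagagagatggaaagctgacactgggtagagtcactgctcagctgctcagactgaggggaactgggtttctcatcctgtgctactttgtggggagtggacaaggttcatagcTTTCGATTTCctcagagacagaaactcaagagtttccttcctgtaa
Mx1 (chr16:97461351-97461550): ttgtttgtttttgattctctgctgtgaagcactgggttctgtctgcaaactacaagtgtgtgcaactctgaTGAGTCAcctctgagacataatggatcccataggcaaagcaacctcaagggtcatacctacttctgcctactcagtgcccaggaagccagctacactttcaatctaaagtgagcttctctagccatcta
Spp1 (chr5:104436772-104436900): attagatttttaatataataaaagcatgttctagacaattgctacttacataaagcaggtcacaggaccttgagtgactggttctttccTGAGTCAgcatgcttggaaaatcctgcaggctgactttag
Gbp5 (chr3:142499133-142499332): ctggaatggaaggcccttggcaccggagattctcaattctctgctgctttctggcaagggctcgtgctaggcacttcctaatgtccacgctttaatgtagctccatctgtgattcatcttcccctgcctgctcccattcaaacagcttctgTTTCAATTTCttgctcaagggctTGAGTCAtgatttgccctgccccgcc
The first 3 and the Mcm5, Mx1 and Spp1 windows held 1 AP-1 match each, and the Hsfy2 window held 3. The Treml2 and Ifi206 windows held only an ISRE match, while the Tespa1 and Gbp5 windows held both kinds.

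The lists held between 51955 and 64939 peaks, with replicate 2 the longer one in both genotypes, and the read depth behind them is unknown. A longer list places the same peak at a higher percentile, so the lists were also cut to the same length of 51955 peaks. That cut gave 1482 rising and 1502 falling regions, and the rising share of the regions that moved was 49.7% in place of 32.0%. Of the 657 rising regions, 427 overlapped a rising one there. Left-out libraries moved the count as well. There were 715 rising regions without H3.3cKO replicate 2 and 1128 without WT replicate 1. Without H3.3cKO replicate 1 there were 1722, and without WT replicate 2 there were 2290. In each case 1 library stood for its genotype, and the cause of these differences was not tested. Promoters of 11 of 12 macrophage markers had a peak in all 4 libraries, and Spi1 had none in this window. Of 55 markers of 7 other cell types, 10 had a promoter peak in all 4, and none of the 8 stromal and 5 mast cell or basophil markers had one in any library. Only 2 rising regions were nearest to a marker gene, Adgre1 and, noticed after its value was seen, Siglech, and the part of other cells in the results was not tested.

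The rising regions were weak peaks in WT and medium peaks in H3.3cKO. Their median percentile was 19.5 in WT replicate 1 and 28.9 in WT replicate 2, against 57.8 and 63.5 in H3.3cKO replicates 1 and 2. These values chose the regions and are given as a description. Among all shared autosomal regions the medians were 59.2 and 65.1 in WT and 56.1 and 62.6 in H3.3cKO, so the rising regions stood well below the typical shared region in WT and near it in H3.3cKO. The median area went from 318 and 403 in WT to 756 and 911 in H3.3cKO, and the median peak width from 320 and 341 bp to 477 and 508 bp. At the limit of the rule, a region 3 bp from the TSS of Ccl27a was just inside with a gap of 20.01 points and a region in an intron of Casp12 just outside with 19.997 points. Inside with them were regions with Arid2 (20.02) and Pced1b (20.0) as the nearest gene, and outside were those of Tnxb (19.99) and Mrtfb (19.97). The 3 outside held an AP-1 match and the 3 inside did not.

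**Figure D1:**
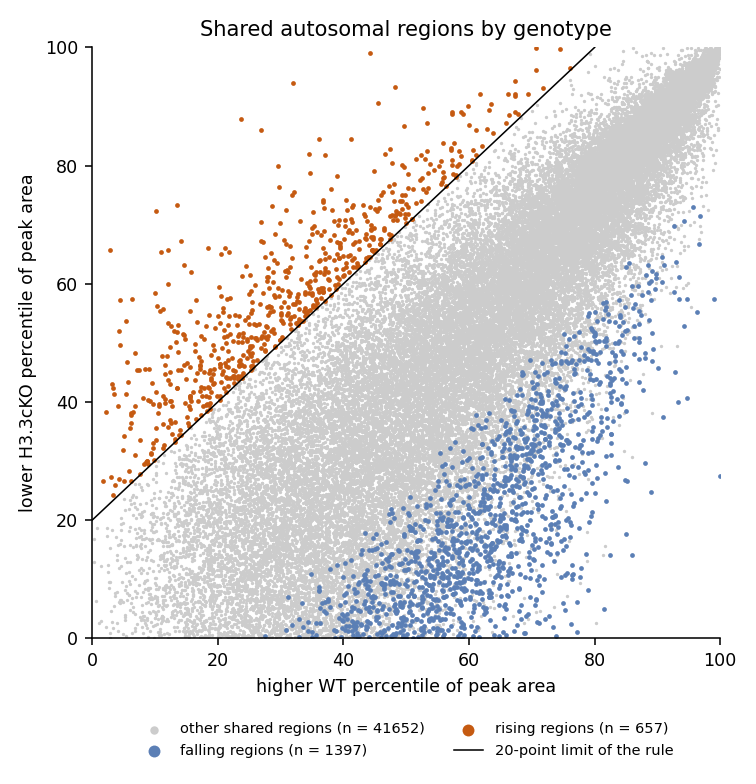
Each point is 1 of 43706 shared autosomal regions, with the higher of its 2 WT percentiles of peak area on the x axis and the lower of its 2 H3.3cKO percentiles on the y axis. The 657 rising regions (orange) lie above the 20-point line, mostly in the upper left of the plot, and the 1397 falling regions (blue) lie on the other side of the diagonal.

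The 20 regions with the largest gaps lay mostly away from promoters, with 9 in introns, 7 between genes, 3 in promoters and 1 in an exon. The largest gap, 64.1 points, was at chr13:74366888-74368190, between genes and 3534 bp upstream of Lrrc14b. Its percentiles were 3.91 and 23.7 in WT and 87.8 and 89.5 in H3.3cKO. In this region 70.6% of the window around the summit was repeat-masked sequence.

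The second was upstream of Tespa1, a gene of T cell receptor signalling, at chr10:130311316-130312277. It had percentiles of 2.85 and 2.80 in WT and 65.7 and 66.0 in H3.3cKO, and a second rising region lay close to it, with a gap of 21.5 points. The 2 libraries of each genotype differed by less than 1 point here. Ranked by area per base pair, which divides the area by the width of the peak, the gap of 62.8 points was 13.2 points.

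An intron of Nr3c2, the gene for the mineralocorticoid receptor, held a region (chr8:77112770-77113307) at 10.1 and 5.16 in WT and 72.5 and 72.3 in H3.3cKO. An intronic region of Map2, a microtubule-associated protein best known from neurons, went from 13.5 and 10.3 to 73.4 and 75.03 (chr1:66266625-66267067). Neither gene is a usual macrophage marker.

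Among these 20, the highest percentiles in H3.3cKO were found at Hhat, which encodes the enzyme that adds palmitate to Hedgehog proteins, and at a region whose nearest protein-coding TSS, Rwdd3, was 522687 bp away. The Hhat intron (chr1:192744951-192746885) ranked at 35.5 and 44.3 in WT and 99.0 and 99.5 in H3.3cKO. The region nearest to Rwdd3 (chr3:120648418-120649583) had percentiles of 1.08 and 32.0 in WT and 93.9 and 95.1 in H3.3cKO, so both stood in the lower part of the WT lists and near the top of the H3.3cKO lists.

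Treml2 encodes a receptor of the TREM family on myeloid and lymphoid cells. A region 355 bp downstream of its TSS (chr17:48300133-48301349) ranked at 21.6 and 26.9 in WT and 86.0 and 88.0 in H3.3cKO. A further rising region stood 4282 bp upstream of Trem2, the myeloid lipid receptor in the same gene cluster, at 28.8 and 25.3 in WT and 61.9 and 64.2 in H3.3cKO. In all 20 regions every WT library lay at or below 44.3 and every H3.3cKO library at or above 52.1.

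**Figure D2:**
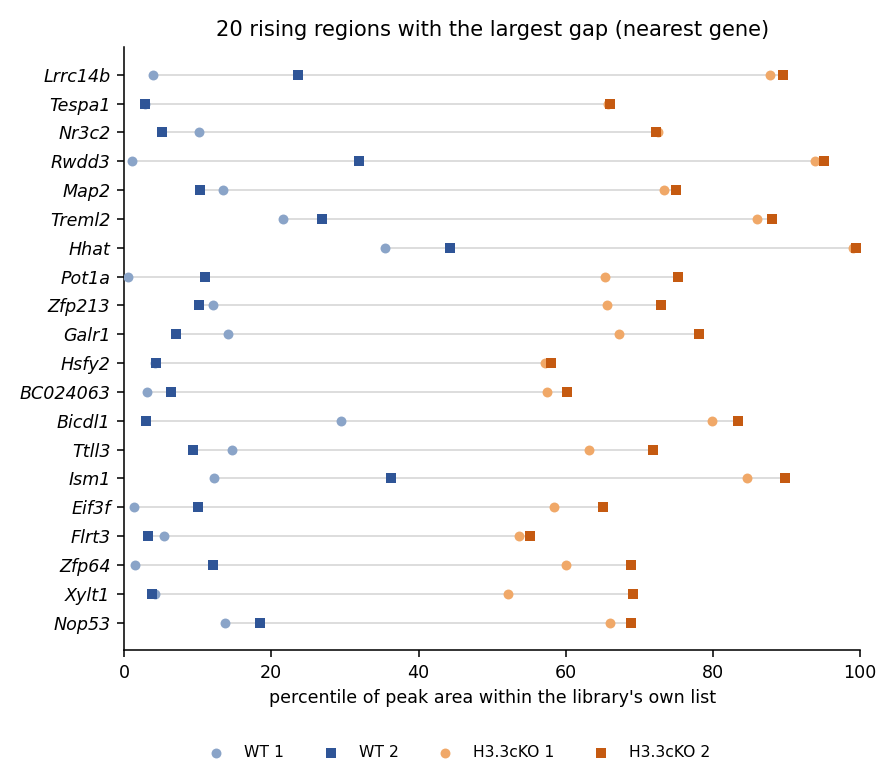
Percentile of peak area within each library's own list (x axis) for the 20 rising regions with the largest gap, named by the nearest protein-coding gene (y axis), with 1 point per library. WT points (blue) lie between 0.542 and 44.3 and H3.3cKO points (orange) between 52.1 and 99.5. The 2 libraries of a genotype usually lie closer to each other than to the other genotype, which the choice by gap favours.

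The second column of the lists, the −log10 p-value at the summit, moved the same way in most regions. In 628 of 657 rising regions (95.6%) both H3.3cKO libraries were above both WT libraries, and the falling regions had 99.1% for the mirror order. Over all shared regions both H3.3cKO libraries were above both WT libraries in 15.02%. The summit is a point of the curve whose area chose the regions, so this order is no independent measure. Median summit values of the rising regions were 3.74 and 4.06 in WT and 5.02 and 5.50 in H3.3cKO. Ranking by this column gave 893 rising regions, with which 516 of the 657 overlapped.

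Some rising regions were broad. Of the genes named here, Lgals3 and Pfn1 were noticed after their values were seen. Width ranged from 223 to 10194 bp, and 29 regions (4.41%) were wider than 1500 bp, against 1.002% of falling and 5.999% of all shared regions. The widest, at chr14:47378435-47388628, lay over Lgals3, the gene for galectin-3, a lectin made in large amounts by macrophages. WT replicates 1 and 2 had 3 and 2 separate peaks in it, the strongest at percentiles 41.3 and 70.6. Each H3.3cKO library had 1 peak there at 99.97, so the percentiles compare peaks of unlike extent.

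The next in width spanned the promoter of Psap, the precursor of the lysosomal saposins (chr10:60279430-60288193, 8764 bp). It held 4 and 6 peaks in WT, the strongest at 71.7 and 74.5, and 2 and 1 in H3.3cKO at 99.7 and 99.9. The summit value hardly differed, at 4.92 and 5.42 in WT against 5.15 and 5.28 in H3.3cKO, and ranked by it the gap was -11.5 points. A second region, 18908 bp downstream of the Psap TSS and in an exon of Cdh23, had percentiles of 5.87 and 26.9 in WT and 67.2 and 70.9 in H3.3cKO. Its gap of 40.2 points was 3.76 points by the summit value and 2.39 points by area per base pair.

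Broad regions were also seen at Spp1 and Pfn1. Spp1 encodes osteopontin, a secreted phosphoprotein. A region at an exon 1474 bp into the gene (chr5:104436715-104438617) ranked at 3.17 and 21.5 in WT and 51.1 and 76.1 in H3.3cKO, but ranked by the summit value the gap was -25.0 points. A second region 9741 bp downstream of the Spp1 TSS had percentiles of 58.8 and 66.2 in WT and 92.1 and 93.7 in H3.3cKO. At Pfn1, which encodes the actin-binding protein profilin, the percentiles were 44.2 and 55.2 in WT and 79.95 and 92.6 in H3.3cKO. Regions with several peaks were 6.09% and 8.83% of the rising regions in the WT libraries and 1.37% and 1.07% in the H3.3cKO libraries. Of the 657, 591 had exactly 1 peak per library, 369 overlapped a rising region by area per base pair and 41 one among peaks above each list's median area. That last cut removes the weaker peaks of each list, and the rising regions had median WT percentiles of 19.5 and 28.9. Most of them therefore could not be shared after it.

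Most rising regions lay outside promoters. Introns held 47.6% of them (313 regions), intergenic DNA 38.2% (251), promoters 9.28% (61) and exons 4.87% (32). All shared autosomal regions had 44.5%, 28.0%, 20.1% and 7.39% in the same order, and falling regions 54.98%, 33.4%, 5.87% and 5.73%. The promoter share of rising regions was between 7.95% and 9.18% when single libraries were left out. Counted by class, 2.05% of intergenic and 1.61% of intronic regions were rising, against 0.693% of promoters. The median distance to the nearest protein-coding TSS was 24.9 kb for rising regions, 24.1 kb for falling regions and 13.0 kb for all shared regions. Rising and falling regions were thus alike in their distance from genes.

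Promoters were a larger share of strong regions, so the shares were compared among regions of like strength. Among regions with a mean percentile of 30 to 40 over the 4 libraries, promoters were 8.77% of 171 rising and 8.65% of 4740 other regions. At 60 to 70 they were 9.38% of 64 rising and 16.6% of 5316 other regions. At 50 to 60 they were 12.1% of 116 rising and 13.7% of 5147 other regions. Below a mean percentile of 80, promoter shares of rising and other regions differed by less within each bin than 9.28% and 20.1% do, and above 80 only 3 regions were rising. The part of peak strength in the difference was not tested.

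Promoters that rose by the rule were of varied genes. The largest promoter gap, 51.1 points, was at BC024063, a zinc finger gene of a family with near-identical copies, where reads may be split between copies. Bicdl1, a dynein adaptor, had percentiles of 29.5 and 2.97 in WT and 79.9 and 83.4 in H3.3cKO at its promoter. Ttll3, a tubulin-modifying enzyme, had 14.6 and 9.34 in WT and 63.2 and 71.8 in H3.3cKO.

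Other promoter regions had smaller gaps. Pfas, an enzyme of purine synthesis, ranked at 6.94 and 9.11 in WT and 45.6 and 47.0 in H3.3cKO. Zwilch, a kinetochore protein, had percentiles of 14.8 and 13.7 in WT and 50.6 and 67.4 in H3.3cKO, and ranked by area per base pair its gap was -4.92 points. The promoter of the histone gene Hist3h2ba ranked at 10.0 and 27.5 in WT and 64.5 and 69.1 in H3.3cKO. Afg3l2, a protease of the inner mitochondrial membrane, had percentiles of 5.58 and 5.32 in WT and 46.8 and 66.1 in H3.3cKO. The promoter regions nearest to Ddit4l and Havcr2 were 70527 and 6859 bp away from the protein-coding TSS, at other annotated transcripts, and 41 of the 61 promoter regions kept the class with protein-coding genes only.

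A sequence feature that the rule did not use was more frequent among the 657 regions. An AP-1 match (TGAGTCA or TGACTCA) lay within 100 bp of the summit in 236 of them, or 35.9%. The share was 14.3% of all shared autosomal regions and 8.23% of falling regions. With single libraries left out it was 26.5% to 34.3% for rising and 7.87% to 9.11% for falling regions, and the ranges did not meet. These rising sets kept 656 or 657 of the 657 regions, so they are no independent measure. Over the 14 alternatives that changed the set, the rising share ran from 26.5% to 37.7% and the falling share from 7.06% to 10.2%. These shares rest on 2 libraries per genotype and carry no test.

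The AP-1 matches of rising regions also lay nearer to the summit. The median distance was 22 bp in rising, 31 bp in all shared and 39 bp in falling regions with a match, and 56.4%, 42.9% and 28.7% of the matches were within 25 bp. The summit was that of the top-ranked peak, which came from an H3.3cKO library in every rising region. It came from a WT library in every falling region. With the summit of the WT replicate 2 peak, the AP-1 share of rising regions was 34.9%. The distances were not measured from that summit. Read the other way, 3.78% of the 6238 shared regions with an AP-1 match were rising, against 1.50% of all.

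The AP-1 share was higher in rising regions within each class of location. It was 39.3% of rising against 17.4% of all intronic regions, 36.3% against 17.7% between genes, 43.8% against 9.07% in exons and 13.1% against 4.62% in promoters. It was also higher among regions of like strength. At a mean percentile of 20 to 30 it was 32.1% of 106 rising and 13.3% of 4134 other regions, and at 40 to 50 it was 41.3% of 155 rising and 14.5% of 5096 other regions. Only 14 and 3 rising regions stood at the 2 ends of the scale, below 20 and above 80, where the shares were 14.3% and 0% against 11.8% and 11.4%. Rising regions with and without AP-1 had like gaps, with medians of 26.6 and 25.2 points. Of the 20 regions with the largest gaps, 7 held a match.

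**Figure D3:**
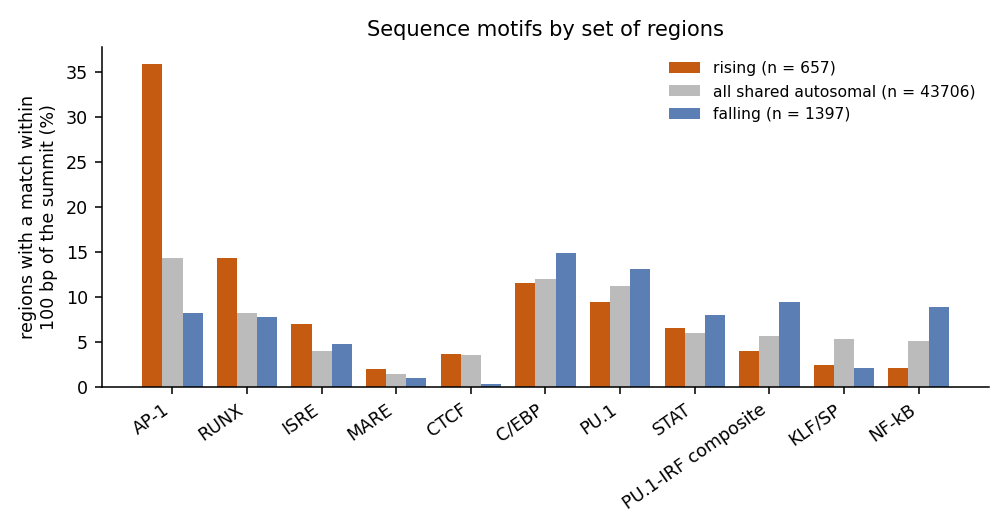
Share of regions (y axis, percent) with a match to each of 11 motifs (x axis) within 100 bp of the summit, for 657 rising, 43706 shared autosomal and 1397 falling regions. AP-1 stands apart at 35.9%, 14.3% and 8.23%, RUNX has the same order at its upper end, and NF-kB has the opposite order.

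Across all shared autosomal regions the AP-1 share climbed with the difference between the genotypes. It was 6.57% of the 335 regions whose mean percentile was over 40 points lower in H3.3cKO, 11.6% of regions between 10 points lower and equal, 22.9% of those 10 to 20 points higher and 35.4% of the 161 regions over 40 points higher. The climb included regions that missed the 20-point rule. NF-kB, an activator of inflammatory genes, ran the other way, from 8.96% to 2.48% at the same ends, as did the composite element of PU.1 and interferon regulatory factors, from 9.25% to 2.48%.

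**Figure D4:**
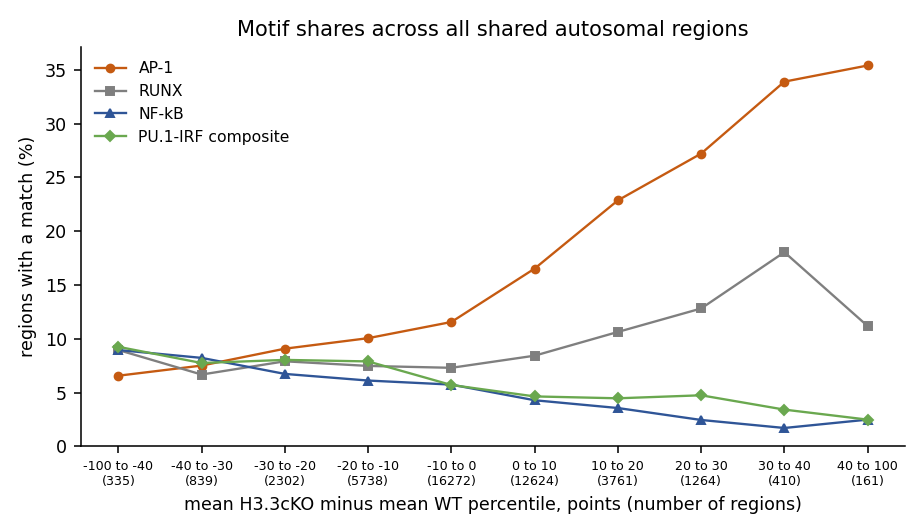
Share of regions with a motif match (y axis, percent) in bins of the mean H3.3cKO minus the mean WT percentile (x axis, points, with the number of regions under each bin). The AP-1 line climbs from 6.57% to 35.4%, while NF-kB and the PU.1-IRF composite fall from 8.96% and 9.25% to 2.48% each.

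Other motifs differed by fewer percentage points. RUNX (AACCACA), bound by the runt family that acts in blood cells, matched 14.3% of rising, 8.24% of all shared and 7.80% of falling regions, and 13.0% to 13.7% of rising regions without single libraries. AP-1 and RUNX matched together in 27 rising regions (4.11%), against 1.21% of all shared regions. The ISRE matched 46 rising regions (7.002%), 4.01% of all shared and 4.80% of falling regions. It was about as frequent at both ends of the genotype difference. It matched 7.76% of the 335 regions over 40 points lower in H3.3cKO and 8.07% of the 161 regions over 40 points higher. NF-kB matched 2.13% of rising, 5.16% of all shared and 8.88% of falling regions.

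The lineage factors of macrophages gave no such excess. PU.1 (GAGGAAGT) matched 9.44% of rising, 11.2% of all shared and 13.1% of falling regions, and C/EBP (TTGCNNAA) 11.6%, 12.02% and 14.9%. STAT (TTCNNNGAA) matched 6.54%, 6.03% and 7.95% of the same sets. CTCF, which marks insulators, matched 3.65% of rising and 3.52% of all shared regions but 0.286% of falling regions. The MAF element overlaps AP-1 and matched 1.98% of rising regions, 11 of its 13 together with AP-1. Of the rising regions, 29.4% held none of the 15 motifs, against 40.2% of all shared regions.

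The remaining motifs matched at most 5.33% of the rising, all shared or falling regions. The cyclic AMP response element (TGACGTCA) matched 0.913% of rising and 1.16% of all shared regions. The E-box of the MiT/TFE factors (TCACGTG) matched 1.37% and 2.83%. The GC box of the KLF and SP factors (GGGGCGGGG) matched 2.44% and 5.33%, and among promoters alone 11.5% and 16.3%. The composite element of CHOP and ATF4 (TGATGCAA) matched 1.22% and 1.08%, and the EGR element (GCGTGGGCG) 1 rising region.

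Interferon-stimulated genes (ISGs) encode the antiviral proteins that cells make in response to interferon. Of 269 shared regions nearest to a listed ISG and within 100 kb, 10 were rising (3.72%) and 4 were falling (1.49%). Regions within the same distance of any protein-coding gene had 1.41% and 3.02%. Without single libraries the rising share was 3.66% to 9.59%, while the share of all shared autosomal regions that were rising was then 1.62% to 5.21%. The median difference between the genotypes over the 269 regions was 0.549 points, against -1.13 points over all genes. The list and the members were chosen with earlier results of these libraries known.

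The largest gap among them, 45.9 points, was 201 bp upstream of Ifi206 (chr1:173491043-173491441). The percentiles were 3.54 and 10.3 in WT and 56.2 and 59.6 in H3.3cKO. The promoter of Ifi205 ranked at 17.0 and 31.3 in WT and 61.3 and 58.8 in H3.3cKO. Both genes belong to the Ifi200 family of nucleic acid sensors, whose members are similar copies in 1 cluster, so reads may be placed on the wrong copy. Both promoters held an ISRE match.

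Trim25 encodes the ubiquitin ligase that activates the RNA sensor RIG-I. An intronic region 7299 bp into the gene (chr11:89006334-89007016) had percentiles of 6.93 and 20.6 in WT and 58.0 and 69.1 in H3.3cKO. Mx1, an antiviral GTPase, had a promoter region (chr16:97461109-97461887) at 3.24 and 8.95 in WT and 40.3 and 52.1 in H3.3cKO. Its gap of 31.3 points turned to -20.5 points when peaks were ranked by area per base pair. A second shared region 9803 bp upstream of Mx1 was among the 4 falling ones, at 82.8 and 81.4 in WT and 43.8 and 53.4 in H3.3cKO.

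Rsad2, which encodes viperin, an inhibitor of viral replication, had 2 rising regions. The one in its intron (chr12:26452727-26453411) ranked at 6.26 and 31.3 in WT and 57.9 and 65.6 in H3.3cKO, with a gap of -0.939 points by area per base pair. The one 16752 bp downstream of the TSS (chr12:26439295-26440105) had percentiles of 40.6 and 49.3 in WT and 74.0 and 81.3 in H3.3cKO.

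Gbp5, a guanylate-binding protein that acts in inflammasome assembly, had an intronic region at 28.4 and 10.6 in WT and 56.1 and 63.5 in H3.3cKO. Its gap by area per base pair was -21.8 points, and it too has similar neighbouring copies. Regions near Trim21, the cytosolic antibody receptor, near Trim30b, which has similar copies beside it, and near Tor3a had gaps of 21.6 to 23.1 points, and that of Trim21 was -3.60 points by area per base pair. In all 10 regions the WT libraries lay between 3.24 and 49.3 and the H3.3cKO libraries between 40.3 and 81.3, and the genotypes did not overlap within any region, as the rule requires. Of the 10, 4 held an ISRE match, 4 an AP-1 match and 7 at least 1 of the 2.

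Ifi27 was not on the list and was noticed after its values were seen. Its intron held a region of 2321 bp (chr12:103437536-103439856) at 38.0 and 53.2 in WT and 87.2 and 89.6 in H3.3cKO. Ifi44, an ISG that the study displays, had no shared region and so could not enter the set.

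**Figure D5:**
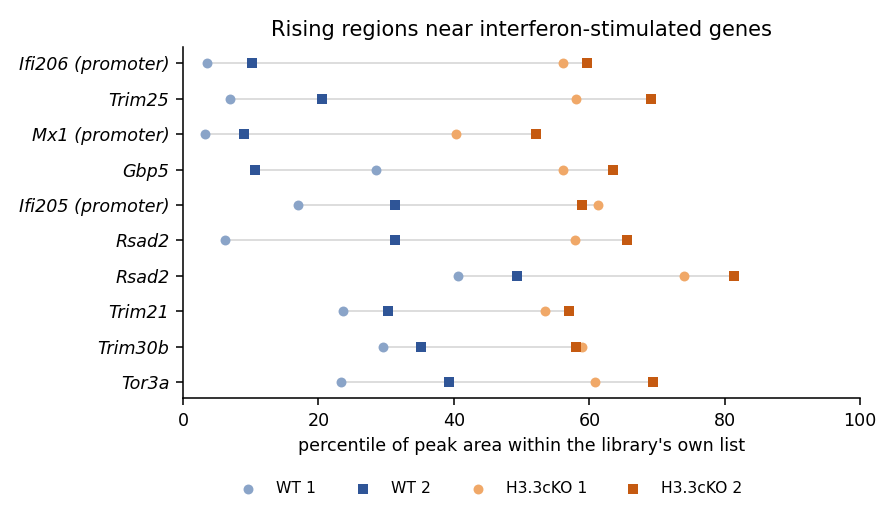
Percentile of peak area within each library's own list (x axis) for the 10 rising regions nearest to an interferon-stimulated gene (y axis, 2 regions for Rsad2), with 1 point per library. WT points (blue) lie between 3.24 and 49.3 and H3.3cKO points (orange) between 40.3 and 81.3.

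The other gene lists held few rising regions each. Of all regions within 100 kb of a protein-coding gene, 1.41% were rising and 3.02% were falling. Cell cycle and DNA replication genes had 5 of 176 regions (2.84%) and 3 falling ones. The largest gap was 4697 bp upstream of Mcm5, a subunit of the replicative helicase, at chr8:75104176-75105567, with percentiles of 25.4 and 34.5 in WT and 81.9 and 88.7 in H3.3cKO. A region 31814 bp downstream of the Cdk1 TSS ranked at 29.9 and 39.0 in WT and 67.0 and 75.9 in H3.3cKO, and its gap was -48.2 points by area per base pair. Regions near Ccne1, Aurkb and Atr had gaps of 22.5 to 24.9 points.

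Genes of osteoclasts and cell fusion also had 5 of 175 regions (2.86%), at Flrt3, Trem2, Cd9, Atp1b3 and Tnfrsf11a, and 4 falling ones (2.29%). Flrt3 encodes an adhesion protein, and its intronic region (chr2:140668337-140668744) had percentiles of 5.398 and 3.19 in WT and 53.7 and 55.2 in H3.3cKO. Tnfrsf11a encodes RANK, the receptor for the osteoclast factor RANKL, and ranked at 19.6 and 32.8 in WT and 53.2 and 55.6 in H3.3cKO. The gap at Atp1b3 turned to -1.58 points by the summit value and to -19.1 points by area per base pair.

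Macrophage identity genes had 4 rising regions of 320 (1.25%) and 15 falling ones (4.69%). A region 23496 bp upstream of Adgre1, the gene for F4/80, had percentiles of 29.8 and 36.9 in WT and 72.8 and 77.7 in H3.3cKO. By area per base pair its gap of 35.9 points was 0.0266 points. An intronic region of Timd4, a receptor for phosphatidylserine, ranked at 20.1 and 27.8 in WT and 62.0 and 61.2 in H3.3cKO. The remaining 2 were at Trem2 and Klf6.

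Lysosome genes had 3 of 240 (1.25%), 2 at Psap and 1 at Cd63, and 9 falling regions. Cytokine and chemokine genes had 3 of 203 (1.48%), 2 at Spp1 and 1 near Tnfsf10, the gene for TRAIL, whose gap was -1.83 points by the summit value and -10.9 points by area per base pair. Sterol and lipid synthesis genes had 2 of 143 (1.40%), in an intron of Lss, the lanosterol synthase, with a gap of 25.7 points, and at the promoter of Nr1h2, the liver X receptor beta, with a gap of 21.8 points that was -37.1 points by area per base pair. The p53 target genes had 2 of 138 (1.45%), near the apoptosis genes Bcl2l1 and Pmaip1, with gaps of 27.3 and 20.4 points. The cytokine, sterol and p53 lists had 8, 8 and 3 falling regions, and their rising shares were near the 1.41% of all genes.

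The genes for AP-1 subunits and other stress-response factors themselves held few. Of 226 regions near them 2 were rising (0.885%) and 11 were falling (4.87%), against 1.41% and 3.02% near all protein-coding genes. The rising ones were 98060 bp upstream of Egr3, with a gap of 22.5 points, and in an intron of Nfe2l2, the regulator of the oxidative stress response, with a gap of 20.5 points that was -51.7 points by area per base pair.

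Rising regions lay near each other more often than the whole set lay near them. Another rising region was within 50 kb of 100 of the 657 (15.2%), while 6.08% of all shared and 3.01% of falling regions had one. Within 10 kb the shares were 6.85%, 1.66% and 0.644%. Falling regions also lay near each other, with another within 50 kb of 22.5% of them, against 14.2% of all shared regions. Within 10 kb these shares were 6.16% and 3.53%. Regions gained in H3.3cKO, called in both H3.3cKO libraries and in neither WT library, were within 10 kb of 15.4% of rising regions, 5.54% of all shared and 2.22% of falling regions. Regions lost in H3.3cKO, by the mirror definition, were within 10 kb of 18.3% of falling, 11.7% of all shared and 5.02% of rising regions. Gained and lost regions come from the same contrast as the rule, so this is a description.

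Within 100 kb of a TSS there were 547 rising regions near 504 genes, of which 36 had 2 and 3 had more. Tnc, the gene for the matrix protein tenascin-C, had 4. The strongest change was 39208 bp upstream (chr4:64085950-64086496), at 24.5 and 28.6 in WT and 73.2 and 78.9 in H3.3cKO, and a neighbour 40995 bp upstream had percentiles of 28.2 and 26.99 in WT and 56.2 and 68.9 in H3.3cKO. By area per base pair the gap of this neighbour was -43.4 points, and that of the region downstream of the gene was -0.0906 points.

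Negr1, a neural adhesion molecule, had 3, with gaps of 28.2, 20.1 and 21.3 points. Trim27, a ubiquitin ligase gene beside the histone cluster of chromosome 13, had 3, with gaps of 24.6 to 30.8 points, and 1 of them was at -0.454 points by the summit value. Slc15a4, a transporter of the endolysosome needed for Toll-like receptor signalling, had 2 and was noticed after its values were seen. The one between genes (chr5:127591942-127593905) ranked at 0.547 and 20.4 in WT and 65.1 and 76.9 in H3.3cKO, and the intronic one had percentiles of 11.7 and 16.7 in WT and 53.6 and 65.8 in H3.3cKO. In windows of 5 Mb with at least 30 shared regions, the highest share was 5 of 40 on chromosome 6 from 20000001 to 25000000. The rising regions there were near Cped1, Lmod2 and Slc13a1. The next share was 5 of 52 on chromosome 12, near Id2, Rnf144a and Rsad2.

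By chromosome the share of rising regions ran from 0.930% on chromosome 14 to 2.16% on chromosome 5. Base composition differed slightly, with a median GC content around the summit of 47.3% in rising, 48.3% in falling and 50.2% in all shared regions. More than 50% of the window was repeat-masked in 7.002% of rising, 4.80% of falling and 3.56% of all shared regions. Reads in such windows can have several places in the genome, and their share of the results was not tested.

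None of the shared regions within 10 kb of H3f3a, H3f3b, Lyz2 or Lpin1 was rising, of 3, 4, 4 and 6 regions. Those of Lyz2, the site of the Cre insertion, included 2 falling ones. At Lpin1, a lipid phosphatase gene, the region nearest to the limit for rising had a gap of 16.8 points. An intronic region of Lpin1 was falling, at 68.2 and 76.1 in WT and 17.2 and 17.6 in H3.3cKO.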

How the data were processed

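ATAC-seq peak lists of 4 BMDM libraries, 2 WT and 2 H3.3cKO, were used as the authors deposited them. The authors aligned paired reads to mm10 with Bowtie2 2.5.1 and called peaks in each library with Genrich at default settings. Read filters, duplicates and the Tn5 shift are not given in the sources used here. The deposited signal is the area under the significance curve of a peak, not scaled to depth. The deposited −log10 value is the p-value at the summit. The deposited score is the area per base pair, capped in 82.6% to 87.2% of peaks, and was not ranked. The number of reads is unknown, so no counting interval is given.

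Regions, ranks and motif matches were computed with Python 3.11.15, pandas 2.3.3 and numpy 2.4.6, and tested on simulated data. A TSS is a start of an annotated transcript, a promoter runs from 1000 bp upstream to 100 bp downstream of it, and each region took the class of its centre. Regions are named by the nearest protein-coding TSS at any distance, and gene lists used those within 100 kb. Motifs were searched on both strands within 100 bp of the summit of the top-ranked peak.

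Members and gene lists were chosen with earlier results of these data known. The contrast between genotypes chose the regions, so shares are set beside those of all shared autosomal regions with no test. The genes named were the 20 regions with the largest gap, genes with 3 or more regions, up to 8 regions per gene list, the 10 promoters with the largest gap, the neighbours of the limit, and H3f3a, H3f3b, Lyz2, Ifi44 and Lpin1. Other genes are said to be noticed later.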

Additional observations from a re-analysis of the deposited data

Results flagged for a closer look

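The X chromosome was outside the autosomal set. Of its 1114 shared regions, 13 met the same gap of 20 points (1.17%) and 16 met the mirror rule (1.44%), and these regions are flagged because they lie outside the regions described above. The largest gap among them was 33.9 points, 386116 bp from the TSS of Phex. A region 15680 bp upstream of Cd40lg, the gene for the CD40 ligand, ranked at 14.3 and 6.11 in WT and 47.3 and 58.1 in H3.3cKO. The promoter of Rbm3, which encodes a cold-inducible RNA-binding protein, ranked at 36.9 and 49.2 in WT and 76.3 and 85.9 in H3.3cKO.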

How the results depend on the processing

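The number of rising regions was 1196 at a gap of 15 points, 184 at 30 points, 397 with peaks above each list's median area, 1482 with lists of equal length and 1313 by area per base pair, and 715 to 2290 with 1 library left out. The promoter share of 9.28% was 14.4% with peaks above the median, 19.3% with promoters reaching 2.5 kb to either side and 6.24% when non-coding genes were left out. The cut at the median kept only 41 of the 657 regions, so its shares describe a largely different set. The AP-1 share of 35.9% was 30.8% with lists of equal length, 27.5% by area per base pair, 26.9% within 50 bp of the summit and 26.5% to 34.3% with 1 library left out. The rising share of regions near interferon-stimulated genes, 3.72%, was 1.12% at a gap of 30 points, where 0.421% of all shared regions were rising, and 3.66% to 9.59% with 1 library left out, against 1.62% to 5.21% of all. The share of rising regions within 50 kb of another, 15.2%, was 18.7% at 15 points, 10.9% at 30 points, 10.6% with peaks above the median, 22.5% with lists of equal length, 6.85% within 10 kb, and 15.7% to 27.6% with 1 library left out. It was 10.3% where peaks had to cover 50% of the region, a setting chosen after seeing the data, as was the WT replicate 2 summit. The cause of these changes was not tested.

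With the replicate number as a block, both same-numbered differences had to reach 20 points, which gave 1168 regions, 19.1% of them within 50 kb of another. The libraries share only a number, and 2 pairs do not establish a pairing.

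By area per base pair the gap was negative at Mx1 (-20.5), Gbp5 (-21.8), Rsad2 (-0.939), Trim21 (-3.60), Psap (-74.6), Nr1h2 (-37.1), Nfe2l2 (-51.7), both Spp1 regions (-13.5 and -5.67), Tnfsf10 (-10.9), Cdk1 (-48.2), Atp1b3 (-19.1), Zwilch (-4.92) and 2 Tnc regions (-0.0906 and -43.4). By the summit −log10 p it was negative at Psap (-11.5), Spp1 (-25.0), Tnfsf10 (-1.83), Atp1b3 (-1.58) and Trim27 (-0.454). Of 68 named regions, 31 were under 20 points by area per base pair, 16 by the summit value and 9 by summed area. In every alternative that gave a value, 33 stayed at 20 points or more. A region that was no longer shared under an alternative gave no value there. By area per base pair the gap lay between 0.0266 and 19.7 points at Tespa1, Nop53, Bcl2l1, Adgre1, Ccne1, Aurkb, Atr, Cd9, Pfas, Havcr2, the second Psap and Rsad2 regions, and 2 regions each of Negr1 and Trim27. No named value was under 20 points in the other alternatives, but no stability is read from this. The block cannot lower a gap and a left-out library seldom can. The filters on the number of peaks and on how much of the region they cover keep or drop a region without changing its gap. The cuts at the median area and to equal length gave values only for regions still shared after them.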
